A study of Mus musculus with 24 samples.

Results

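Erythroid and megakaryocyte transcription factors, the erythropoietin receptor and the genes beside them were followed in splenic dendritic cells (DCs) of mouse pups. The 9 genes were Gata1, Klf1, Tal1, Nfe2, Gfi1b, Epor, Tfrc, Car1 and Car2. They were found by symbol among the probe sets that the platform annotation assigns to a single gene, which gave 11 tested probe sets of 22626, or 9 genes of 12393, and 3 control probe sets of Tfrc. Tfrc had 3 tested probe sets, each other gene had 1, and a gene is represented by its probe set with the highest mean signal over all arrays. RNA was measured on 24 Affymetrix arrays of CD11c+ cells that had been held on magnetic beads, from BALB/c pups at 14 days of age. At-risk pups were born to mothers with asthma induced by ovalbumin (OVA) and alum injections followed by OVA aerosols, and normal pups to control mothers. Stimulated pups had been given 5 µg of OVA with 1 mg of alum in a single injection, on day 3 by the sample labels, while naïve pups had received no allergen. Set 1 held 4 stimulated at-risk, 4 stimulated normal, 4 naïve at-risk and 3 naïve normal arrays. Set 2, by the methods made from amplified RNA and preprocessed apart, held 5 stimulated at-risk and 4 stimulated normal arrays. By the methods, an array of each set was excluded as an outlier. Naïve normal pups of Set 1 and stimulated normal pups of Set 2 have fewer arrays than the methods name. The methods call the arrays of a group biological replicates, but the sources used here do not give the pups behind each array. The p-values therefore set a group difference only against the spread of arrays within groups.

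Gata1 is a zinc finger factor that binds GATA sites and is required for red cell and platelet formation. It works in complexes with Tal1, a basic helix-loop-helix factor, and with the repressor Gfi1b, while Klf1 binds CACCC boxes in globin and other red cell genes and Nfe2 is the tissue-restricted subunit of a leucine zipper factor needed for platelet release. Epor receives the erythropoietin signal on red cell progenitors, Tfrc is the transferrin receptor through which they take up iron, and Car1 and Car2 are cytosolic carbonic anhydrases that are abundant in red cells. The neonatal mouse spleen is itself a site of red cell and platelet formation, and Tfrc and Car2 are also expressed in cells of other lineages.

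Promoter windows are printed because several of the genes moved together and because the motifs searched are of the kinds bound by Gata1 and Klf1. RefSeq (build GRCm38.p6) gave 8 windows, from 250 bases before to 50 bases after a start, for 6 of the 9 genes, while no window was at hand for Nfe2, Car1 and Car2. Capitals mark GATA matches (AGATAA or TGATAA, or the forms that end otherwise, AGATAG and likewise TGATAG) and CACCC-type matches (CCNCNCCC), each on either strand, and the sequences run 5′ to 3′ on the strand of the gene.
Gata1, chrX:7967861-7968160, minus strand: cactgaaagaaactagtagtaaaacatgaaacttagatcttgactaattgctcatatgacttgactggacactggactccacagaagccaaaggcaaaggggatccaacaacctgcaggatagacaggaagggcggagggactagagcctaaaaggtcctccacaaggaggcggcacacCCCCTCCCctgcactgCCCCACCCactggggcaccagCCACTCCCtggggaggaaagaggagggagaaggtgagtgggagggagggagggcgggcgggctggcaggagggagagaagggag
Klf1, chr8:84901732-84902031, plus strand: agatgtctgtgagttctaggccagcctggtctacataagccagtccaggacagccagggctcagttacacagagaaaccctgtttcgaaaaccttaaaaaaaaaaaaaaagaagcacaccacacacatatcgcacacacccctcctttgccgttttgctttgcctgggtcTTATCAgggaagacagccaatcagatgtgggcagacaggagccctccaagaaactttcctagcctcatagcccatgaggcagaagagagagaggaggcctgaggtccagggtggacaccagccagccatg
Tal1, chr4:115056176-115056475, plus strand: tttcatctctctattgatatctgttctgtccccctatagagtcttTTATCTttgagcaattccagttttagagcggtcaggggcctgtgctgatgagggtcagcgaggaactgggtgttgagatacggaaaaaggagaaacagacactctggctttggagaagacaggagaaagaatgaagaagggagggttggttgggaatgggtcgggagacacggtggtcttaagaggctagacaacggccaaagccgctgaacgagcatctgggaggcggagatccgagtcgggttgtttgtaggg
Gfi1b, chr2:28621933-28622232, minus strand: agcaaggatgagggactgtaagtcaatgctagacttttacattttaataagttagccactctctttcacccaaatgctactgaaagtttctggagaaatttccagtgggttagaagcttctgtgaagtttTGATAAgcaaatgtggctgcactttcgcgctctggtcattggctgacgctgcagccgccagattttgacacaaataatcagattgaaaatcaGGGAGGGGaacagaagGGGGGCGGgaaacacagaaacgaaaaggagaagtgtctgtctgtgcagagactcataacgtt
Epor, chr9:21963527-21963826, minus strand: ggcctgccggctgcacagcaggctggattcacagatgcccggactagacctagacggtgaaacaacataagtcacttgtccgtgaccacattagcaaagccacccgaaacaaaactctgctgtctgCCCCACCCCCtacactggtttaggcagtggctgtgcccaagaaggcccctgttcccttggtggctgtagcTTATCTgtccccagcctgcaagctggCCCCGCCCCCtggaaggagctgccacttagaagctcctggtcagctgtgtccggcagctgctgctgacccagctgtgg

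A GATA match stood in the windows of Klf1, Tal1, Gfi1b and Epor, thus in 4 of the 8 windows, against 29.8% of all 32851 windows. CACCC-type matches stood in 6 of the 8 windows, against 49.5% of all windows. Both Tfrc windows are among the 6, and they overlap and share some of these matches. The Gata1 window held 3 such matches and no GATA match, the Klf1 window 1 GATA match alone, and the Epor window 1 GATA and 4 CACCC-type matches. A second Tal1 window held 4 CACCC-type matches and no GATA match, and neither Tfrc window held a GATA match. A match is a description of letters and no measured site.

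With OVA and alum, the allergen stimulus, 8 of the 9 genes were higher in at-risk pups and the same number in normal pups. No group is labelled as given alum or an injection without OVA, so that OVA, alum and the injection cannot be told apart. Below, allergen stands for them together. A gene was called where the p from limma, adjusted by Benjamini and Hochberg's method over all 22626 probe sets, was at most 0.05 and the log2 fold change at least 0.32 in size. The increases in at-risk pups ran from 2.08-fold for Car2 to 7.02-fold for Car1, and those in normal pups from 1.75-fold for Nfe2 and Epor to 4.65-fold for Gfi1b. In both kinds of pup Tfrc passed the p but not the fold. Across all probe sets 4.42% were called higher in at-risk and 5.73% in normal pups, and the median log2 fold change was 2.36 over the 9 genes against -0.015 over all probe sets in at-risk pups, and 1.77 against 0.004 in normal pups. These are bulk samples, so that more cells of a type and more RNA per cell cannot be told apart.

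**Figure D1:**
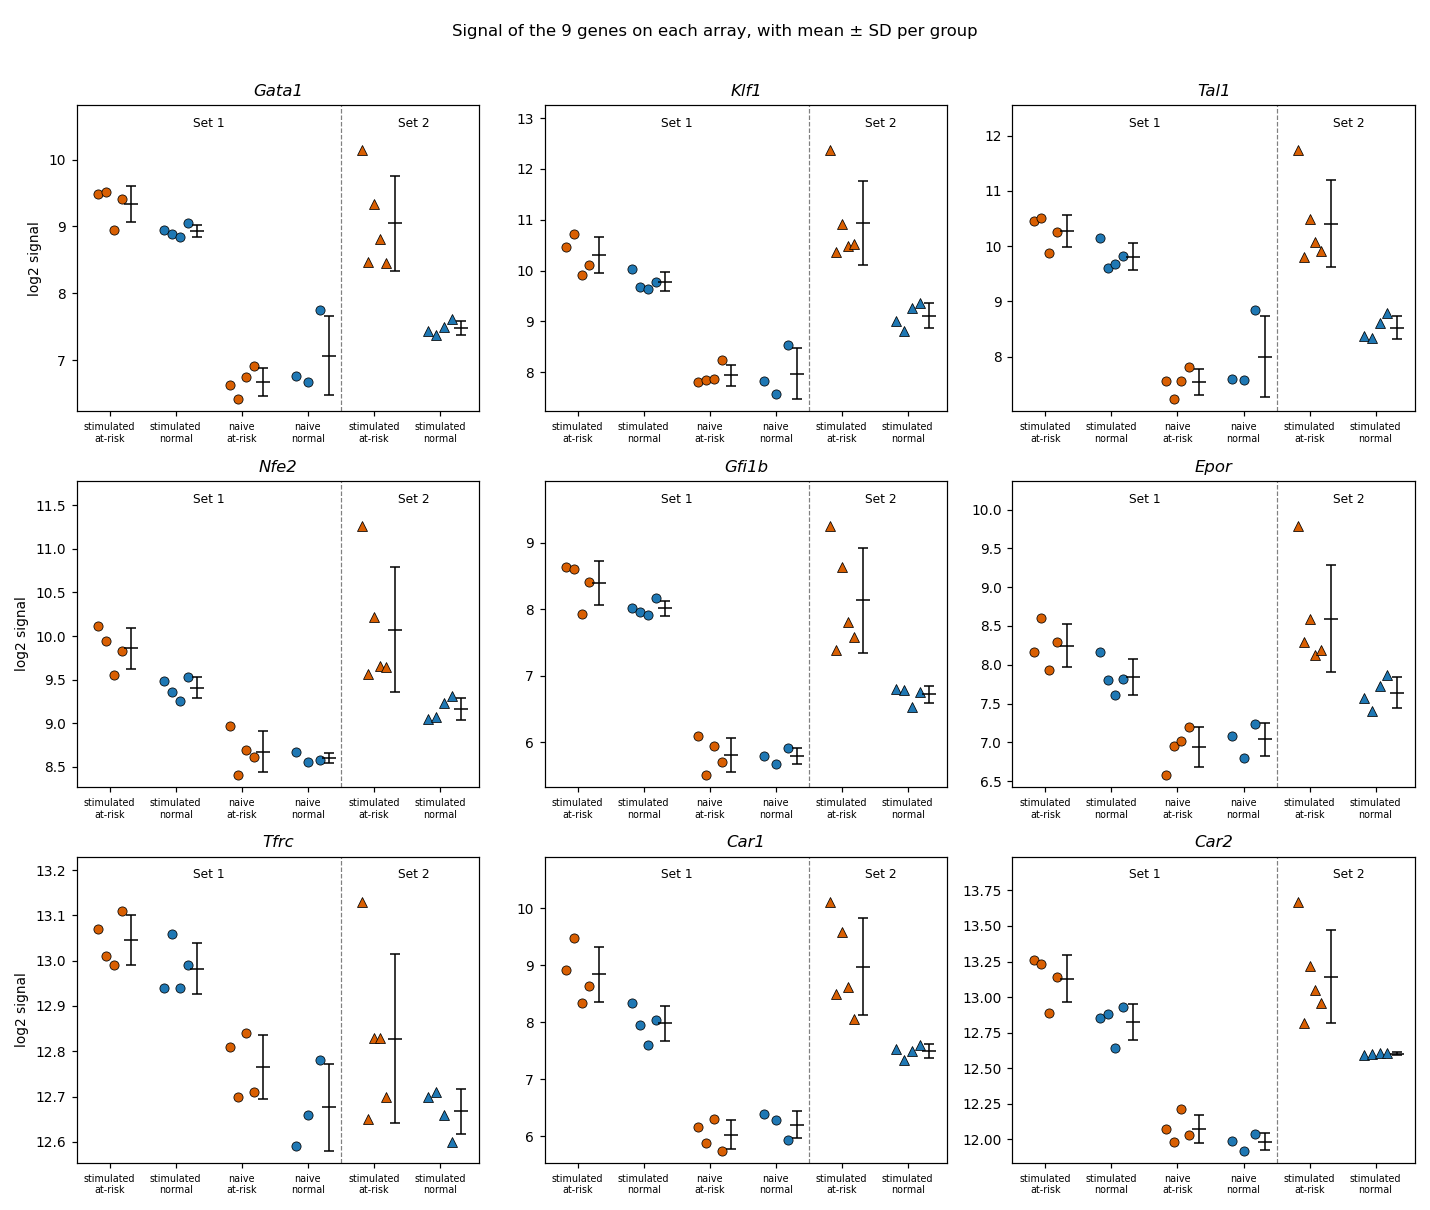
Log2 signal (vertical axis) of the 9 genes on each of 24 arrays, with circles for Set 1, triangles for Set 2, orange for at-risk and blue for normal pups, and bars for the mean ± SD of each group. For every gene the stimulated arrays of Set 1 lie above its naïve arrays, and in Set 2 array AF123, the first orange triangle, is the highest of its group in every panel.

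Gata1 had log2 signals of 9.49, 9.52, 8.94 and 9.41 in stimulated at-risk pups, against 6.63, 6.42, 6.75 and 6.91 in naïve at-risk pups. Stimulated normal pups had 8.94, 8.88, 8.84 and 9.05, against 6.77, 6.68 and 7.75 in naïve normal pups. No stimulated array of Set 1 fell within the naïve range, and the highest naïve value, 7.75, was that of AF79. The increase was 2.66 on the log2 scale in at-risk pups (SE 0.20, adjusted p = 6.22e-07 from limma) and 1.86 in normal pups (SE 0.21, adjusted p = 3.59e-05).

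Tal1, the partner of Gata1 in its activating complex, followed the same order of groups in Set 1. Its log2 signals were 10.45, 10.51, 9.88 and 10.26 in stimulated at-risk pups, against 7.55, 7.23, 7.55 and 7.81 in naïve at-risk pups. In stimulated normal pups they were 10.14, 9.61, 9.67 and 9.83, against 7.59, 7.57 and 8.84 in naïve normal pups. AF79 again stood above the other naïve arrays without reaching the stimulated ones. Tal1 rose by 2.74 (SE 0.24, adjusted p = 3.12e-06 from limma) in at-risk and 1.81 (SE 0.26, adjusted p = 0.000263) in normal pups.

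Klf1, an activator of adult beta globin, had 10.46, 10.73, 9.92 and 10.11 in stimulated at-risk pups, against 7.81, 7.85, 7.87 and 8.25 in naïve at-risk pups. Its values were 10.04, 9.67, 9.63 and 9.78 in stimulated normal pups, against 7.82, 7.57 and 8.53 in naïve normal pups. The ranges did not overlap in either kind of pup. The log2 fold change was 2.36 (SE 0.20, adjusted p = 2.35e-06 from limma) in at-risk and 1.81 (SE 0.22, adjusted p = 5.38e-05) in normal pups.

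Gfi1b, a transcriptional repressor of red cell and platelet precursors, had the smallest adjusted p of the 9 genes in both kinds of pup. It read 8.64, 8.61, 7.92 and 8.41 in stimulated at-risk pups, against 6.09, 5.51, 5.95 and 5.70 in naïve at-risk pups, and 8.02, 7.95, 7.91 and 8.17 in stimulated normal pups, against 5.79, 5.67 and 5.92 in naïve normal pups. Every stimulated array was at least 7.91 and no naïve array was above 6.09. The increase was 2.58 (SE 0.15, adjusted p = 4.96e-08 from limma) in at-risk and 2.22 (SE 0.16, adjusted p = 6.50e-07) in normal pups.

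Nfe2 had smaller fold changes than the other 4 factors. Its log2 signals were 10.11, 9.94, 9.55 and 9.83 in stimulated at-risk pups, against 8.97, 8.41, 8.70 and 8.62 in naïve at-risk pups. Stimulated normal pups had 9.49, 9.36, 9.26 and 9.53, against 8.67, 8.56 and 8.58 in naïve normal pups. The groups did not overlap, and the log2 fold change was 1.18 (SE 0.12, adjusted p = 1.50e-05 from limma) in at-risk and 0.81 (SE 0.13, adjusted p = 0.000765) in normal pups.

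Epor, the receptor, had 8.16, 8.60, 7.93 and 8.30 in stimulated at-risk pups, against 6.58, 6.95, 7.02 and 7.20 in naïve at-risk pups. It had 8.16, 7.80, 7.61 and 7.81 in stimulated normal pups, against 7.08, 6.80 and 7.23 in naïve normal pups. The gap between the lowest stimulated and the highest naïve array was narrower in normal pups, 7.61 against 7.23, than in at-risk pups, 7.93 against 7.20. The log2 fold change was 1.31 (SE 0.16, adjusted p = 6.87e-05 from limma) in at-risk and 0.81 (SE 0.17, adjusted p = 0.00551) in normal pups, and the second call was lost when all 24 arrays entered the fit (adjusted p = 0.0544).

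Car1, a red cell carbonic anhydrase, was 8.91, 9.48, 8.34 and 8.63 in stimulated at-risk pups, against 6.16, 5.89, 6.31 and 5.75 in naïve at-risk pups. It was 8.33, 7.95, 7.60 and 8.04 in stimulated normal pups, against 6.39, 6.29 and 5.94 in naïve normal pups. The rise of 2.81 in at-risk pups (SE 0.21, adjusted p = 8.74e-07 from limma) was the largest log2 fold change of the 9 genes, and that in normal pups was 1.77 (SE 0.23, adjusted p = 0.000117). AF79, high for Gata1, Tal1 and Klf1 among the naïve normal arrays, was the lowest of them for Car1.

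Car2, the more widely expressed isozyme, changed less. It had 13.26, 13.23, 12.89 and 13.14 in stimulated at-risk pups, against 12.07, 11.98, 12.21 and 12.03 in naïve at-risk pups. It had 12.85, 12.88, 12.64 and 12.93 in stimulated normal pups, against 11.99, 11.92 and 12.04 in naïve normal pups. The groups were apart in both kinds of pup, with log2 fold changes of 1.06 (SE 0.09, adjusted p = 1.72e-06 from limma) in at-risk and 0.84 (SE 0.09, adjusted p = 2.92e-05) in normal pups.

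Tfrc was at 12.99 to 13.11 in stimulated at-risk pups, against 12.70 to 12.84 in naïve at-risk pups, and at 12.94 to 13.06 in stimulated normal pups, against 12.59 to 12.78 in naïve normal pups. Its groups did not overlap either, yet the change was 1.21-fold in at-risk pups (log2 0.28, SE 0.06, adjusted p = 0.00625 from limma) and 1.24-fold in normal pups (log2 0.31, SE 0.06, adjusted p = 0.0045), below the fold required. All 9 genes had every stimulated array above every naïve array, in at-risk pups (8.89% of all probe sets) and in normal pups (11.6% of all probe sets). Leaving out any single array of Set 1 left at least 8 genes called in each comparison, and without AF79 the normal increases of Gata1 and Tal1 were 2.20 and 2.23.

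The Tfrc probe sets differed in size of change. In at-risk pups the probe set with the second highest mean rose by 0.42 (SE 0.11, adjusted p = 0.0275 from limma) and the third had 0.42 (SE 0.16, adjusted p = 0.138). In normal pups the third rose by 0.71 (SE 0.18, adjusted p = 0.0135) and the second had 0.15 (adjusted p = 0.478). Counting any probe set of a gene, all 9 genes were called in both kinds of pup. The array also carries 3 control probe sets along the Tfrc transcript, which were added to the fit after the data were seen. The 3′ one rose by 0.46 in at-risk pups (adjusted p = 0.00913) and had 0.18 in normal pups (adjusted p = 0.315), the middle one rose by 0.58 (adjusted p = 0.014) in at-risk and 0.53 (adjusted p = 0.0278) in normal pups, and the 5′ one had 0.42 (adjusted p = 0.346) and 0.74 (adjusted p = 0.0648).

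The log2 signal of the 3′ minus that of the 5′ control probe set, a measure of how far the labelled RNA reaches along a transcript, was 2.60 to 2.98 in stimulated at-risk, 2.62 to 3.32 in stimulated normal, 2.52 to 3.05 in naïve at-risk and 2.93 to 4.14 in naïve normal arrays of Set 1. AF79 had the highest value, 4.14. In Set 2 it was 2.94 to 3.75 in at-risk and 2.89 to 3.86 in normal arrays. The part of this difference in the values of the 9 genes was not tested.

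**Figure D2:**
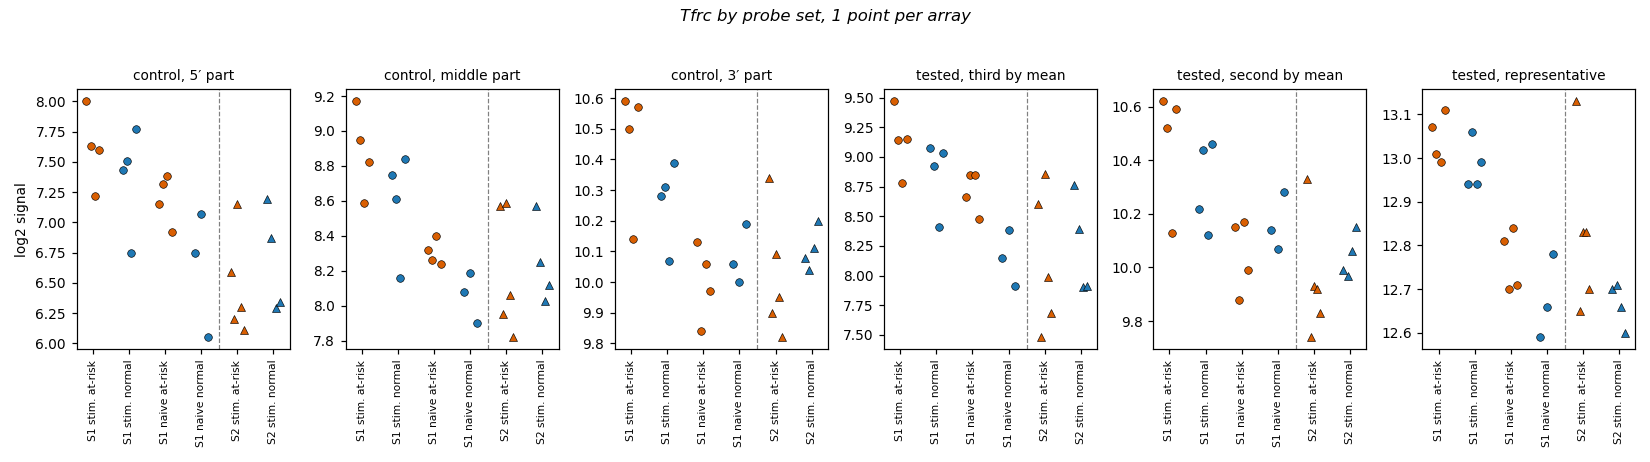
Log2 signal of Tfrc (vertical axis, with its own scale in each panel) on each of 24 arrays for the 3 control probe sets and the 3 tested ones, with circles for Set 1, triangles for Set 2, orange for at-risk and blue for normal pups. The representative probe set changed by 0.28 and 0.31 on the log2 scale with allergen in at-risk and normal pups, and the 5′ control and the third tested probe set show the widest spread within groups.

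**Figure D3:**
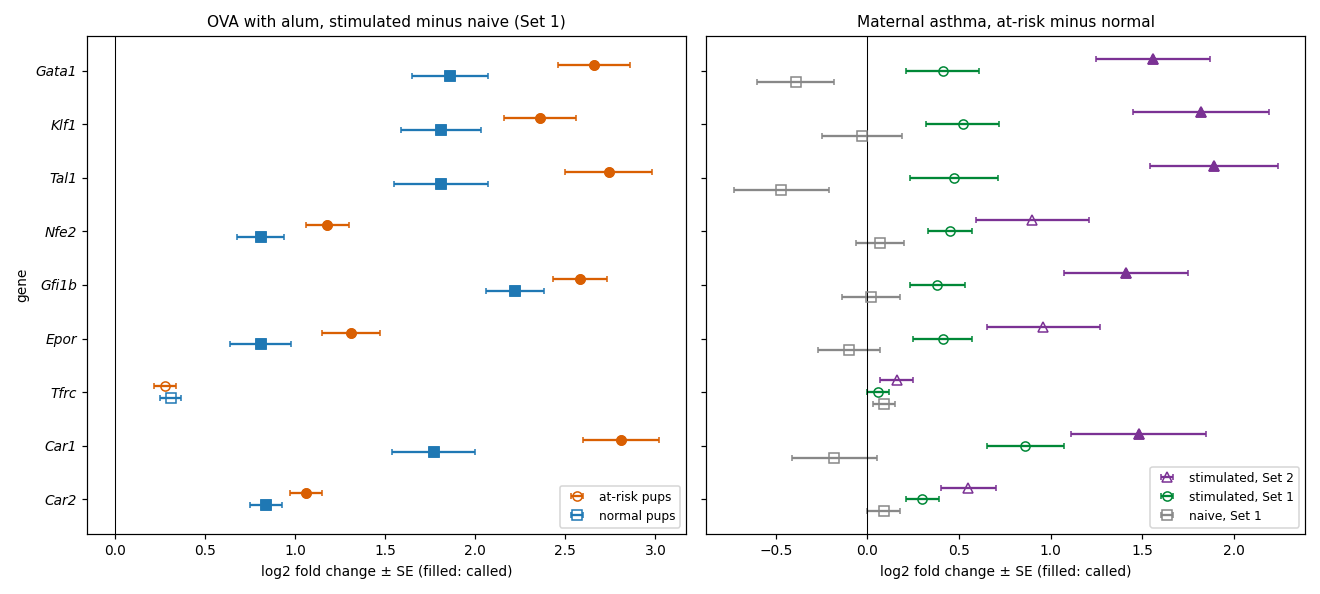
Log2 fold changes ± SE (horizontal axis) of the 9 genes by limma, stimulated minus naïve on the left and at-risk minus normal on the right, with filled symbols where the change was called. All genes but Tfrc were called for allergen in both kinds of pup, and 5 were called for maternal asthma in stimulated pups of Set 2, against 0 in stimulated or naïve pups of Set 1.

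Other regulators named with these factors were mostly not called. Of 25 measured transcription factors that share complexes, sites or lineages with them, 4 rose and 2 fell with allergen in at-risk pups, and 1 rose and 2 fell in normal pups, with medians of 0.09 and 0.08. Of all probe sets 4.42% rose and 3.46% fell in at-risk pups, and 5.73% rose and 5.76% fell in normal pups. Sox6, which acts in red cell maturation, rose by 2.18 (SE 0.22, adjusted p = 1.48e-05 from limma) and 1.65 (SE 0.24, adjusted p = 0.000311) in at-risk and normal pups. Zfpm1, the cofactor of Gata1 also called Fog1, rose by 1.29 in at-risk pups (adjusted p = 0.00063) and had 0.35 in normal pups (adjusted p = 0.321). Gata2, which precedes Gata1 in progenitors and also marks mast cells, rose by 0.84 in at-risk pups (adjusted p = 0.00599) and had 0.36 in normal pups (adjusted p = 0.24), and Myb rose by 0.33 in at-risk pups. Gfi1, the relative of Gfi1b in myeloid and lymphoid cells, went the other way with -0.56 and -0.94 (adjusted p = 0.000435 and 8.56e-06), and Klf2 with -0.60 and -0.71. Lmo2 and Ldb1, the bridging proteins of the Gata1 and Tal1 complex, were not called and had log2 fold changes between 0.06 and 0.21.

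Genes acting below Epor and beside Tfrc and the carbonic anhydrases were mostly not called. Of 12 measured genes of Epo signaling 0 rose and 1 fell in at-risk pups, and 0 rose and 3 fell in normal pups, against 3.46% and 5.76% of all probe sets called lower. Irs2, an adaptor of cytokine and insulin receptors, had -0.62 (adjusted p = 0.00438 from limma) and -1.61 (adjusted p = 2.35e-06), while Jak2, the kinase bound to Epor, had 0.03 and -0.05 and was not called. Of 13 genes of iron handling 3 rose in at-risk pups, and 2 rose and 2 fell in normal pups. Tfr2, the second transferrin receptor, rose by 1.34 (adjusted p = 0.000131) and 1.07 (adjusted p = 0.00142), Slc25a37, the mitochondrial iron importer, by 0.95 and 0.67, and Steap3, a ferrireductase of the transferrin cycle, by 1.00 in at-risk pups. Of 14 other carbonic anhydrases none was called in at-risk pups and only Car13 was called in normal pups, with -0.87 (adjusted p = 0.00865).

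Markers of red cells and platelets moved with these genes. Of 18 measured red cell genes that are not among the 9, 15 rose with allergen in at-risk pups and 15 in normal pups, with medians of 1.55 and 1.09. Kel, a blood group protease, rose by 2.45 and 1.66, and Alas2, the first enzyme of heme synthesis in red cells, by 0.91 and 0.50. Hba-a1, an adult alpha globin, read 4.04 to 4.64 on all 24 arrays, below the lower quartile of all probe sets, and was not called. Of 24 listed red cell genes 18 were measured. Only probe sets with 1 symbol were read, so that a probe set shared by several globin genes would not enter. The summed intensity of the 18 genes was 25952 to 32668 in stimulated at-risk, 21798 to 25268 in stimulated normal, 12402 to 15632 in naïve at-risk and 12850 to 15007 in naïve normal arrays.

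Of 15 platelet and megakaryocyte markers 14 rose in at-risk and 11 in normal pups, with medians of 3.40 and 2.90. Pf4, a platelet chemokine, rose by 4.57 and 4.40, and Gp1bb, a subunit of the von Willebrand factor receptor, by 4.27 and 3.84. The sum of the 15 was 15942 to 27052 in stimulated at-risk and 15227 to 19844 in stimulated normal arrays, against 3782 to 4279 in naïve at-risk and 3936 to 5661 in naïve normal arrays. Of 17 cell cycle genes 9 rose in at-risk and 8 in normal pups, with medians of 0.42 and 0.39. The 14 measured DC markers summed to 103615 to 113782 over all arrays, with 0 called in at-risk pups, and 3 higher and 1 lower in normal pups. By the methods, flow cytometry found nearly all cells kept on the beads to carry both CD11c and MHC-II. What share of the changes of the 9 genes goes with other cells in the bead fraction was not tested.

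**Figure D4:**
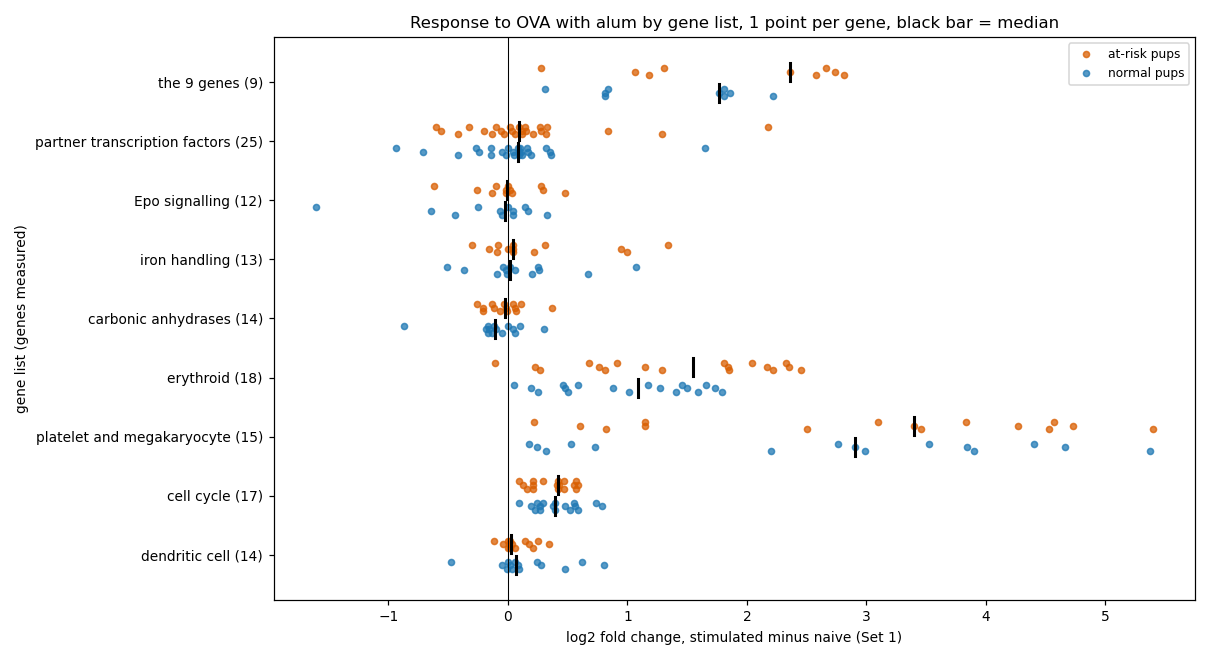
Log2 fold changes with allergen (horizontal axis, stimulated minus naïve, Set 1) of the 9 genes and of 8 gene lists, with 1 point per gene, orange for at-risk and blue for normal pups, and a black bar at the median. The 9 genes, the red cell list and the platelet list have medians of 2.36, 1.55 and 3.40 in at-risk pups, against 0.09 for the other transcription factors and 0.03 for DC markers.

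In stimulated pups maternal asthma was set against control mothers over 17 arrays, with set as a term. Of the 9 genes 6 were higher in at-risk pups, against 1.31% of all probe sets. These were Gata1, Klf1, Tal1, Gfi1b, Car1 and Car2, with log2 fold changes from 0.43 for Car2 (SE 0.10, adjusted p = 0.0268 from limma) to 1.21 for Klf1 (SE 0.27, adjusted p = 0.0268) and Tal1 (SE 0.27, adjusted p = 0.0261). Car1 had 1.19 (SE 0.24, adjusted p = 0.0194), Gata1 1.02 (SE 0.23, adjusted p = 0.0268) and Gfi1b 0.93 (SE 0.24, adjusted p = 0.0493). Nfe2 with 0.69 (adjusted p = 0.0628), Epor with 0.70 (adjusted p = 0.0702) and Tfrc with 0.11 (adjusted p = 0.309) did not pass. Most of these calls needed each of the 4 stimulated normal arrays of Set 2, since 1 gene was called without AF118, AF120 or AF121 and 0 without AF119. The log2 fold changes of the 6 genes without AF119 were still 0.42 to 1.13. Calls over all probe sets, in either direction, fell as well. They were 1.73% with every array, and 0.738%, 0.614%, 0.681% and 0.809% without AF118, AF119, AF120 and AF121. Without AF123 8 genes were called (1.9% of all probe sets), and without a term for set 2 genes (0.535% of all probe sets). The call of Gfi1b was the least stable, and was lost under 17 of its 26 alternatives, with log2 fold changes of 0.76 to 1.03. These took in single arrays of both sets, set as a random block (adjusted p = 0.0618) and quantile normalization (adjusted p = 0.053).

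Within Set 1 the at-risk minus normal differences of stimulated pups were 0.06 to 0.86, positive for all 9 genes, and none was called, against 0.0707% of all probe sets (16 called, and 1655 at an unadjusted p under 0.05). Car1 had 0.86 (SE 0.21, adjusted p = 0.218 from limma), Klf1 0.52 (SE 0.20, adjusted p = 0.529) and Nfe2 0.45 (SE 0.12, adjusted p = 0.268). Only Car1 and Nfe2 had every at-risk array above every normal one (2.76% of all probe sets), and by little. The lowest at-risk and the highest normal value were 8.34 and 8.33 for Car1, and 9.55 and 9.53 for Nfe2. AF90 was the lowest of the stimulated at-risk arrays of Set 1 for all 9 genes.

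Within Set 2 the differences were larger. Gata1 had log2 signals of 10.14, 8.47, 9.34, 8.81 and 8.46 in at-risk pups, against 7.44, 7.37, 7.50 and 7.61 in normal pups. Klf1 had 12.37, 10.37, 10.91, 10.49 and 10.52 in at-risk pups, against 9.01, 8.82, 9.26 and 9.37 in normal pups. The at-risk arrays spread over more than a log2 unit with AF123 on top, the normal arrays lay close together, and the groups did not overlap. By the methods an outlier array had been excluded from the set, and the normal group was the smaller one. The log2 fold change was 1.56 for Gata1 (SE 0.31, adjusted p = 0.0181 from limma) and 1.82 for Klf1 (SE 0.37, adjusted p = 0.0208).

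Tal1 showed the same picture, with 11.74, 9.81, 10.50, 10.08 and 9.92 in at-risk pups of Set 2, against 8.37, 8.33, 8.61 and 8.79 in normal pups (log2 fold change 1.89, SE 0.35, adjusted p = 0.0138 from limma). Gfi1b had 9.25, 7.39, 8.63, 7.81 and 7.58 in at-risk pups, against 6.80, 6.79, 6.53 and 6.75 in normal pups (1.41, SE 0.34, adjusted p = 0.0441). Car1 had 10.11, 8.49, 9.59, 8.62 and 8.06 in at-risk pups, against 7.54, 7.33, 7.50 and 7.61 in normal pups (1.48, SE 0.37, adjusted p = 0.0484). These 5 genes were called higher, against 2.58% of all probe sets.

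Nfe2 with 0.90 (adjusted p = 0.134 from limma), Epor with 0.96 (adjusted p = 0.114), Car2 with 0.55 (adjusted p = 0.0665) and Tfrc with 0.16 (adjusted p = 0.335) were not called in Set 2. Car2 had 13.67, 12.82, 13.22, 13.05 and 12.96 in at-risk pups, against 12.59, 12.60, 12.61 and 12.61 in normal pups, so that even its lowest at-risk array was above every normal one. Nfe2 had 11.26, 9.57, 10.22, 9.66 and 9.65 in at-risk pups, against 9.05, 9.07, 9.23 and 9.31 in normal pups, and Epor 9.79, 8.29, 8.59, 8.12 and 8.19, against 7.57, 7.40, 7.72 and 7.87. All 9 genes but Tfrc were without overlap in Set 2, against 5.67% of all probe sets.

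AF123 was the highest array of its group for all 9 genes, and over the 8 genes other than Tfrc it lay a mean of 1.13 above the group mean. Without it the Set 2 log2 fold changes were 1.29 for Gata1, 1.46 for Klf1, 1.55 for Tal1, 1.14 for Gfi1b and 1.19 for Car1, and with the narrower spread 8 genes were called, Nfe2, Epor and Car2 among them (adjusted p = 0.0422, 0.0188 and 0.0248 from limma). Leaving out a normal array of Set 2 gave 1 gene without AF118 or AF120, 0 without AF119 and 3 without AF121. Without the at-risk array AF125 or AF126 3 genes were called. Of all probe sets 4.62% were called in either direction with every array of Set 2. This share was 2.52%, 2.24%, 2.23% and 4.33% without AF118, AF119, AF120 and AF121. It was 4.41%, 6.83% and 3.35% without AF123, AF125 and AF126. The difference between the sets was itself not called for any of the 9 genes, against 1.79% of all probe sets (3693 at an unadjusted p under 0.05). It was largest for Tal1, at 1.42 (SE 0.42, adjusted p = 0.105), followed by Klf1 at 1.30 (SE 0.45, adjusted p = 0.169) and Gata1 at 1.15 (SE 0.37, adjusted p = 0.131). Without AF123 that of Tal1 was called (1.09, adjusted p = 0.0282), and with array weights those of Gata1, Klf1 and Tal1. Calls for this difference over all probe sets were 1.7% without AF123 and 10.8% with array weights.

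Red cell and platelet markers moved with this difference too. Of the 18 red cell genes 12 were higher in stimulated at-risk pups over both sets (median 0.83), 0 in Set 1 alone (0.47) and 6 in Set 2 alone (1.17). Their sum in Set 2 was 22898 to 54202 in at-risk arrays, against 17195 to 18091 in normal arrays. Of the 15 platelet markers 9 were higher over both sets (1.15), 0 in Set 1 (0.27) and 11 in Set 2 (1.81), with sums in Set 2 of 7441 to 13346 in at-risk arrays, against 4398 to 4848 in normal arrays. In Set 1 these sums of at-risk and normal arrays overlapped for platelets, at 15942 to 27052 and 15227 to 19844, and did not for red cell genes. Of the other regulators, Zfpm1 was higher over both sets (0.92, adjusted p = 0.0483 from limma), and Zfpm1 and Gata2 in Set 2 (1.43 and 0.65). Other cell markers differed in Set 2 as well, where 2.58% of all probe sets were called higher and 2.04% lower. Of 6 NK cell markers 5 were lower in at-risk pups (median -0.78), as were 5 of 8 T cell markers (-0.65) and 2 of 10 red pulp macrophage markers (-0.29). Of 7 stromal markers 4 were higher (0.54), as were 5 of 10 endothelial (0.51) and 2 of 6 B cell markers (0.34). The part of these markers in the maternal difference was not tested.

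In naïve pups none of the 9 genes was called for maternal asthma, against 0.34% of all probe sets (77 called by limma, and 3578 at an unadjusted p under 0.05). The log2 fold changes ran from -0.47 for Tal1 (SE 0.26, adjusted p = 0.393) and -0.39 for Gata1 (SE 0.21, adjusted p = 0.381) to 0.09 for Tfrc and Car2, and the arrays of the groups overlapped for every gene. AF79, with 8.84 for Tal1, 7.75 for Gata1 and 8.53 for Klf1, was the highest naïve array for these 3 genes. Without it Tal1 and Gata1 each had -0.05, and Klf1 had 0.25 in place of -0.03. The red cell list had 0 of 18 called (median 0.09) and the platelet list 0 of 15 (-0.14). In the list of Epo signaling 2 of 12 genes were lower in naïve at-risk pups, against 0.239% of all probe sets. They were Irs2, with -0.76 (SE 0.13, adjusted p = 0.0221 from limma), and Socs2, an inhibitor of cytokine receptor signaling, for which limma gave -0.52 (SE 0.07) at an adjusted p of 0.0048.

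Whether allergen moved the genes more in at-risk than in normal pups was tested as the difference of the maternal effects in Set 1, which uses the same 15 arrays. The difference was positive for 8 of the 9 genes, with a median of 0.51 against -0.015 over all probe sets, and none was called, against 0.0486% of all probe sets (11 called by limma, and 1903 at an unadjusted p under 0.05). Car1 had 1.04 (SE 0.31, adjusted p = 0.337), Tal1 0.93 (SE 0.35, adjusted p = 0.488) and Gata1 0.80 (SE 0.29, adjusted p = 0.456), while Tfrc had -0.03 (SE 0.09, adjusted p = 0.935). Without AF79 Tal1 had 0.51 and Gata1 0.46, and Car1 had 1.17.

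Across the 6 groups the mean levels kept much the same order. Since the sets were preprocessed apart by the methods, levels of Set 1 and Set 2 are set side by side with no test. Stimulated at-risk pups of either set had the highest mean of every gene, and the at-risk groups of the sets overlapped. For Tfrc the stimulated normal pups of Set 1 came next, and every neighbour in its order overlapped. Stimulated normal pups of Set 2 ranked between the stimulated normal pups of Set 1 and the naïve pups for all genes but Tfrc. For Gata1 these means ran 9.34 ± 0.27 in stimulated at-risk pups of Set 1 (SD, n = 4), 9.04 ± 0.71 in those of Set 2 (n = 5), 8.93 ± 0.09 in stimulated normal pups of Set 1 (n = 4), 7.48 ± 0.10 in those of Set 2 (n = 4), 6.68 ± 0.21 in naïve at-risk pups (n = 4) and 7.07 ± 0.59 in naïve normal pups (n = 3). The naïve groups overlapped for all 9 genes, and AF79, at 7.75, lay above all stimulated normal arrays of Set 2 for Gata1.

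Arrays of a group that were high for one of the genes tended to be high for the others. After subtracting group means, Pearson's r over the 24 arrays was 0.63 to 0.96 for the 28 pairs that leave out Tfrc (median 0.82), and 0.58 to 0.84 for the 8 pairs with Tfrc (median 0.74). Gata1 and Tal1 had r = 0.96, and 0.91 without AF123 and AF79. These values are a description, since the points share arrays, groups and preprocessing and AF123 lies far out. The genes of the whole table with the most similar residuals, 3 for each of the 9, were for Tal1 Kel (r = 0.98, or 0.96 without AF123 and AF79), Fhdc1 (0.97) and Gata1 (0.96). For Klf1 they were Abcb6, Fads3 and Tal1 (each 0.96), for Gata1 Tal1, Kel and Slc38a5 (0.96, 0.95 and 0.94), and for Epor Selenbp1, Abcb4 and Klf1 (0.96, 0.95 and 0.93). Gfi1b was closest to Urod, an enzyme of heme synthesis (0.95), Fn3k (0.94) and Tspan8 (0.93). Car2 was closest to Fn3k, Alad and Fech (each 0.93), and Car1 to the pyruvate kinase Pklr (0.95), Septin8 (0.94) and Ctsg (0.93). For Nfe2 they were Cachd1 (0.95), Pigq and Asns (each 0.94). Without AF123 and AF124 the values of Car2 were 0.79 to 0.86, and those of Nfe2 were 0.81 to 0.85. Tfrc had the lowest values, 0.86 with Ms4a3, Cpox and Rnf11, which were 0.60 to 0.72 without AF123 and AF124.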

How the data were processed

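The authors had summarised the Affymetrix Mouse430A 2.0 arrays with RMA (version not given in the sources used here), by the methods each set apart. They deposited linear intensity values, of which log2 was taken with no pseudocount. The methods name a RefSeq-based probe set definition, but the table holds Affymetrix probe sets. The set of an array was read from its number in the sample labels. Of 22690 probe sets 64 controls were left out, and of 22626 tested 20380 had 1 symbol, 691 several and 1555 none. Signal over background was not given, and the number of arrays limits precision.

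Tests were those of limma (version 3.58.1, lmFit with eBayes, under R 4.3.3), with Benjamini-Hochberg adjustment over all tested probe sets. Summaries and figures used matplotlib 3.10.9, pandas 2.3.3, numpy 2.4.6 and Python 3.11.15. The design assumed log2 values. The fits used 15 arrays of Set 1 with 1 mean per group, 17 stimulated arrays with set as a term or in interaction with maternal status, and 9 arrays of Set 2. Named were all 9 genes, some of the called members of the gene lists, a few members not called, and up to 3 genes nearest to each of the 9 by r of within-group residuals. Members and lists were chosen with earlier results of these data known. Alternatives were other arrays in the fit, scalings, a filter at the 40th percentile, no fold minimum, trend and robust, array weights, other probe sets, the set term and each array left out. The control probe sets of Tfrc were added after the data were seen, and so was the attention to AF79 and AF123. The fits were tested on simulated data.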

Additional observations from a re-analysis of the deposited data

Results flagged for a closer look

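In 3 of 55 tests of a group for an array far from the others (Dixon's limits, 0.829 for 4 arrays and 0.71 for 5) a value stood out, and chance alone flags about 1 in 20 groups. In stimulated at-risk pups of Set 2 Klf1 was at 12.37 on AF123, with the other arrays at 10.37 to 10.91, and Epor was at 9.79 on AF123, with the others at 8.12 to 8.59. In naïve at-risk pups Klf1 was at 8.25 on AF83, with the others at 7.81 to 7.87.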

How the results depend on the processing

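Over 72 results for single genes (9 genes in 8 comparisons) and 1629 values under other settings, 1528 kept their direction and their side of the threshold, 61 lost it, 29 passed it and 11 changed sign. The allergen counts of called genes were 8 to 9 in at-risk pups and 7 to 9 in normal pups under every setting. Calls with allergen over all probe sets, in either direction, were 5.48% to 9.6% in at-risk pups (7.88% in the main fit). In normal pups they were 7.76% to 14.2% (11.5% in the main fit). The stimulated count of 6 was 2 without a term for set, and 0 to 8 with 1 array left out. In Set 2 the count of 5 was 8 with all 24 arrays in the fit, 8 with array weights and 0 to 8 with 1 array left out. Calls over all probe sets in Set 2 changed too, from 4.62% to 8.8% with all 24 arrays and 13.9% with array weights. They were 2.23% to 6.83% with 1 array left out. The count of the difference between sets was 3 with array weights and 0 to 1 with 1 array left out. With array weights 10.8% of all probe sets were called for it, against 1.79% in the main fit. All sign changes were of values that were not called. In naïve pups Klf1 had 0.22 with array weights and -0.23 to 0.25 with 1 array left out, Gfi1b 0 with median centring and -0.08 to 0.12, Nfe2 -0.03 to 0.16 and Epor -0.21 to 0.02, and the difference by allergen of Tfrc was 0.01 without AF76. The causes were not tested. Over all probe sets the called counts ran from 12 to 269 (main 77) in naïve pups, 139 to 726 (391) in stimulated pups, apart from 0.535% of all probe sets without a term for set, 0 to 71 (16) in Set 1, 504 to 3136 (1045) in Set 2, 204 to 2454 (404) for the difference between sets and 1 to 42 (11) for that by allergen. No paired analysis was possible because the arrays of different groups share no replicate number.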

Other observations

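Other cell markers in the bead fraction also moved with allergen, in the direction opposite to the 9 genes. Of 8 T cell markers 5 fell in at-risk and 7 in normal pups by limma, with median log2 fold changes of -0.90 and -1.09, and of 6 NK cell markers 4 fell in each, with -0.69 and -0.95. Of 10 red pulp macrophage markers 3 fell in at-risk and 6 in normal pups, with -0.27 and -0.45. Of all probe sets 3.46% fell in at-risk and 5.76% in normal pups. The T cell sum was 8535 to 9053 in stimulated at-risk and 8149 to 12553 in stimulated normal arrays, against 13068 to 13574 in naïve at-risk and 14742 to 15702 in naïve normal arrays.

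Marker lists of the remaining cell types were mixed. Of 7 mast cell and basophil markers 0 rose and 1 fell in each kind of pup, with medians of -0.05 and -0.02. Of 5 eosinophil genes 2 rose in at-risk pups, and 0 rose and 1 fell in normal pups. Of 6 B cell markers 0 rose in either and 1 fell in normal pups, and of 7 neutrophil genes 2 rose in at-risk pups, while 1 rose and 4 fell in normal pups. Of 10 endothelial markers 5 rose and 1 fell in at-risk pups, 1 rose and 1 fell in normal pups, and 5 were higher in at-risk pups when stimulated (median 0.38). Of 7 stromal markers 0 rose with allergen in either kind of pup and 2 fell in normal pups.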
